A study of Mus musculus with 7 samples.

Results

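The 10 genes described here encode RNA-binding proteins that set tissue-biased splicing: Rbfox1, Rbfox2, Rbfox3, Nova1, Nova2, Ptbp1, Ptbp2, Mbnl1, Mbnl2 and Qk. They were taken by gene name from a count table of 38924 gene records, in which Qk has 2 records, and from 7 exon-bin files with 359565 bins each, of which 168 belong to these genes. Exon bins are the non-overlapping pieces into which a gene's annotated exons are cut for counting. Polyadenylated RNA of adult mouse hippocampus was measured in 3 groups. The first was Ammon's horn of mice with both copies of Khdrbs3 deleted (KO, 3 libraries), the second wild-type dentate gyrus (1 library), and the third wild-type Ammon's horn (WT, 3 libraries). All 3 groups, wild types included, carry the same strain label, which names a Tstar null allele crossed back to C57Bl6 for 8 generations. That label therefore does not tell the genotypes apart, and KO and wild type are taken from the source labels. No treatment, promoter or Cre driver is named. Whether the libraries of a group came from different animals is not stated, so every p-value here speaks of variation among libraries, which may be technical.

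Rbfox, Nova and Mbnl proteins bind short motifs in and beside alternative exons and favour inclusion or skipping depending on which side of the exon they sit. Ptbp1 is a repressor of neuronal exons that falls as neurons form, when its paralog Ptbp2 takes over. Qk, quaking, binds RNA through a KH domain of the same STAR type as Khdrbs3 and is best known for its work in oligodendrocytes and myelin. Several of these proteins act on alternative exons in their own transcripts or in those of their paralogs.

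The gene table held 50230733 to 67692326 counts per library. Khdrbs3 itself had 6, 9 and 7 reads in its exon bin 2 in KO libraries, 506 in the dentate gyrus library, and 808, 1103 and 964 in WT Ammon's horn. Its whole-gene level was 198, 203 and 197 CPM, counts scaled to a common library total, in KO Ammon's horn and 142, 143 and 134 CPM in WT Ammon's horn, so the deletion shows as a loss of bin 2 and not as a lower gene total. The regions matched their labels by granule cell and CA1 markers. The 6 granule cell markers summed to 718 CPM in the dentate gyrus and 95.8 to 122 CPM in WT Ammon's horn. The 5 CA1 pyramidal cell markers summed to 94.98 CPM and 732 to 759 CPM in the same order. The 6 CA2 and CA3 pyramidal cell markers separated the regions less, at 324 CPM in the dentate gyrus and 404 to 479 CPM in WT Ammon's horn. Choroid plexus markers varied within groups, at 787, 19.5 and 731 CPM in KO, 262 CPM in the dentate gyrus and 151, 39.4 and 22.2 CPM in WT Ammon's horn.

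The exons that the results below turn on are shown 5′ to 3′ on the transcript strand, from the GENCODE M21 transcripts on GRCm38 (mm10), the build named for the deposited files. The first is the first exon of an M21 Rbfox1 transcript that starts at the same base as the deposited Rbfox1 gene, shown because bin 1 of the gene was used less in the dentate gyrus; capitals mark its start codon. Rbfox1 bins could not be placed on the genome, so where bin 1 ends is not known. The others are 8 of 13 cassette exons, coding exons that some annotated transcripts include and others skip, and are those whose shares of reads are given further on. Capitals in them mark GCATG, the core motif that Rbfox proteins bind.
Rbfox1 first exon, chr16:6809222-6809248, plus strand: ATGaattgtgaaagagagcagctgagg
Rbfox3 bin 15, chr11:118502842-118502934, minus strand: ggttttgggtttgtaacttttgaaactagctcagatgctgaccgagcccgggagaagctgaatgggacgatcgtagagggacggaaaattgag
Nova1 bin 2, chr12:46713498-46713569, minus strand: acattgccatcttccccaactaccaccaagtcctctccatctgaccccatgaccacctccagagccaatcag
Ptbp2 bin 5, chr3:119724612-119724645, minus strand: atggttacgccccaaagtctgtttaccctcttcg
Ptbp2 bin 6, chr3:119726066-119726205, minus strand: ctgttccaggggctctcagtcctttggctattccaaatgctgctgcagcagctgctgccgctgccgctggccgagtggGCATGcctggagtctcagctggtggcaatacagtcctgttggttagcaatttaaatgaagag
Mbnl1 bin 7, chr3:60621423-60621458, plus strand: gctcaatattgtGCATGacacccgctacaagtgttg
Mbnl1 bin 8, chr3:60622146-60622240, plus strand: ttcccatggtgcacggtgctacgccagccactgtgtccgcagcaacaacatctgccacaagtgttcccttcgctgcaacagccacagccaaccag
Mbnl2 bin 8, chr14:120404638-120404732, plus strand: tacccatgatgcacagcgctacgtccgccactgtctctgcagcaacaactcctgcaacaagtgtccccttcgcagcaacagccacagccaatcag
Mbnl2 bin 6, chr14:120395712-120395765, plus strand: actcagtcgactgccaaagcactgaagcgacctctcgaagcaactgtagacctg
The search for GCATG covered both strands of all 13 exons and found it in 3. It occurred in the 36-base Mbnl1 exon, in the 140-base Ptbp2 exon, where it overlaps a match on the other strand, and on the other strand alone in Mbnl1 bin 6, an exon of 154 bases that is not printed. Of M21 internal exons of protein-coding transcripts, 2.06% of the 485 with 36 bases and 13.9% of the 916 with 140 bases held it on the transcript strand, and 3.09% and 22.6% held it on either strand; of the 803 with 154 bases 24.7% held it on either strand. The 34-base Ptbp2 exon, which 3 of 6 spanning transcripts skip, is not a multiple of 3 long. Loss of that exon is the known way in which Ptbp1 sends Ptbp2 mRNA to decay. The 95-base exons of Mbnl1 and Mbnl2 are identical at 81 of 95 positions, 85.3%. The 54-base Mbnl2 exon belongs to the class of Mbnl exons known to favour a nuclear place for the protein, and 3 of 6 spanning transcripts hold it.

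The first comparison asked whether deleting Khdrbs3 altered the levels of the other regulators in Ammon's horn. It did not produce a call for any of them: 0 of 10 genes passed an adjusted p of 0.05 in edgeR's quasi-likelihood test, against 0.0745% of the 22830 genes tested (17 genes). None had an unadjusted p under 0.05, whereas 8.38% of all genes did, and DESeq2 and limma-voom called 0 of 10 as well. The KO and WT ranges overlapped for all 10. The share of all genes whose ranges overlap was not computed.

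Positions are those of the deposited gene table on mm10. Rbfox1, a neuronal and muscle regulator (chr16:6809222-7412479, plus strand), had 228, 253 and 247 CPM in KO and 262, 229 and 240 CPM in WT. Its fold of KO over WT was 0.996, with a 95% interval of 0.900 to 1.10. Rbfox2, which is expressed more widely (chr15:77078990-77307053, minus strand), had 172, 187 and 188 CPM in KO and 178, 173 and 172 CPM in WT, a fold of 1.05 (0.963 to 1.14). One KO library lay just below the WT libraries and the other two lay above them. Rbfox3, known as the neuronal nuclear antigen NeuN (chr11:118489762-118911597, minus strand), had 137, 147 and 145 CPM in KO and 153, 148 and 134 CPM in WT, a fold of 0.986 (0.900 to 1.08).

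Nova1, an activator or repressor of neuronal exons by position (chr12:46694517-46818775, minus strand), had the largest KO value relative to WT of the 10, at 23.8, 24.9 and 26.1 CPM in KO and 24.7, 21.1 and 21.6 CPM in WT. The highest WT library lay within the KO range. The log2 difference was 0.15 (SE 0.08, edgeR adjusted p = 0.636) and the fold 1.11 (0.986 to 1.25). Nova2, its paralog in cortical neurons (chr7:18925888-18965319, plus strand), had 79.1, 77.3 and 71.9 CPM in KO and 74.9, 74.9 and 79.3 CPM in WT, a fold of 0.997 (0.919 to 1.08).

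Ptbp1 (chr10:79854427-79864771, plus strand) stood at 17.3, 17.4 and 15.8 CPM in KO and 18.1, 16.3 and 15.7 CPM in WT, a fold of 1.01 (0.892 to 1.14). Ptbp2 (chr3:119718742-119783388, minus strand) had 75.7, 83.7 and 82.8 CPM in KO and 76.4, 72.2 and 81.4 CPM in WT, a fold of 1.05 (0.959 to 1.16). Neither repressor separated the groups.

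Mbnl1 and Mbnl2 are zinc finger proteins that favour adult splicing patterns. Mbnl1 (chr3:60501252-60629748, plus strand) had 52.3, 50.3 and 55.6 CPM in KO and 54.1, 45.7 and 47.4 CPM in WT, a fold of 1.07 (0.965 to 1.20). Mbnl2 (chr14:120275669-120431697, plus strand) had 137, 145 and 150 CPM in KO and 143, 130 and 138 CPM in WT, a fold of 1.05 (0.961 to 1.15).

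Qk (chr17:10206471-10319361, minus strand) had 198, 196 and 200 CPM in KO, a narrow range inside the WT values of 225, 179 and 208 CPM, and a fold of 0.970 (0.863 to 1.09). The 6 oligodendrocyte marker genes summed to 3396 to 3632 CPM in KO and 3969 to 4151 CPM in WT. By the test 1 of the 6 was lower, beside 0.00876% of all genes. Microglia markers summed to 321 to 335 CPM in KO and 350 to 366 CPM in WT. CA1 markers summed to 672 to 707 CPM in KO and 732 to 759 CPM in WT, and 0 markers were called in either list. For the other marker lists the KO and WT sums overlapped. Any bearing on the Qk level was not tested. The second Qk record, an interval of 0.285 kb beside the gene, had 7, 9 and 9 counts in KO, 15 in the dentate gyrus and 14, 15 and 14 in WT. It was not called in either comparison (adjusted p = 0.633 and 0.987).

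Across the 10 genes the log2 fold changes of KO over WT ran from -0.04 to 0.15 with a median of 0.04, beside a median of 0.0015 for all genes. The widest bounds of the 95% intervals were folds of 0.863 and 1.25. Summing exon bins in place of the gene table gave 0 of 10 calls, against 0.0523% of 15288 genes. The choroid plexus level, which was high in 2 of 3 KO libraries, was entered as a covariate, and 0 of 10 were called with it.

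**Figure D1:**
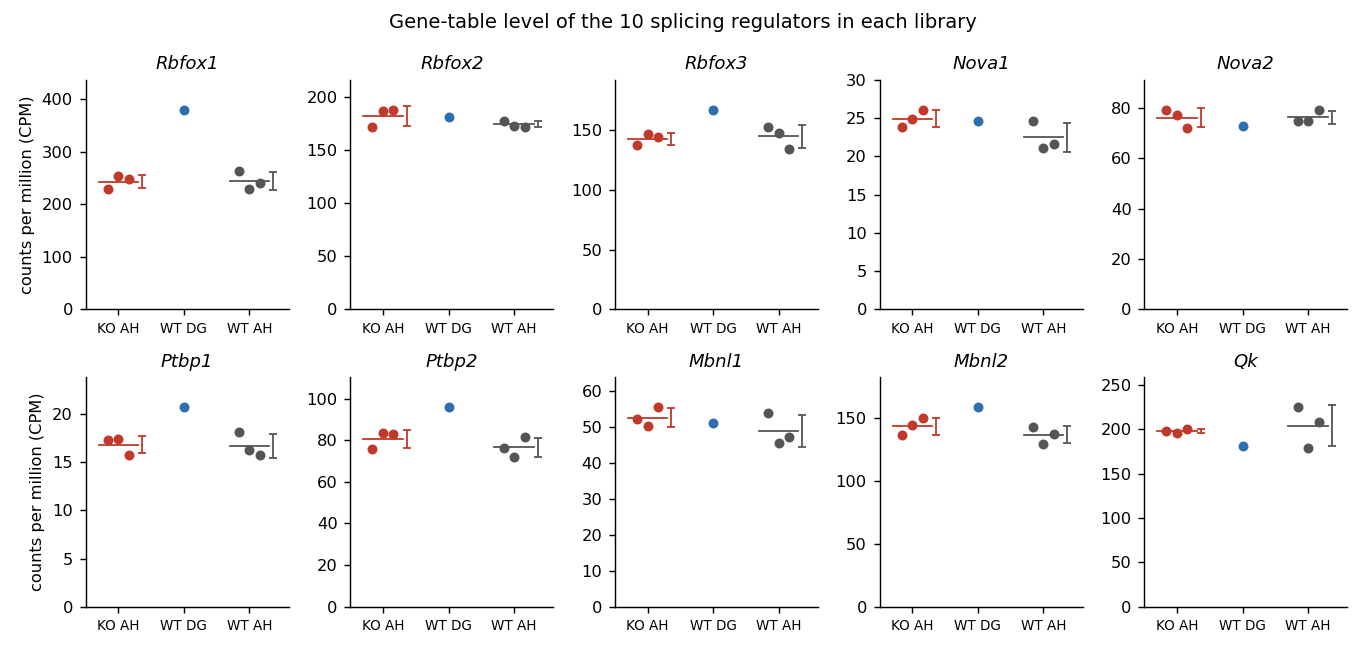
Gene-table CPM of each regulator in every library, with KO Ammon's horn (KO AH) at the left, wild-type dentate gyrus (WT DG) in the middle and wild-type Ammon's horn (WT AH) at the right; lines are means and bars are SD over 3 libraries, and the dentate gyrus has 1 library and no bar. KO and WT ranges overlap in all 10 panels, and the dentate gyrus lies above all 6 Ammon's horn libraries for Rbfox1, Rbfox3, Ptbp1, Ptbp2 and Mbnl2. The shares of all genes that do so were not computed.

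The second comparison set the wild-type dentate gyrus against wild-type Ammon's horn. Rbfox1 and Ptbp2 were higher in the dentate gyrus, and no regulator was called lower. These 2 of 10 compare with 22% of the 24486 genes tested, 11.2% higher and 10.9% lower. An unadjusted p under 0.05 was reached by 5 of 10 members and by 34.3% of all genes. The region has 1 library, and the test assumes for it the variation seen in Ammon's horn. In whole tissue, more or fewer cells of a type and more or less RNA per cell cannot be told apart. Cell type markers moved with the region: all 6 oligodendrocyte markers were lower (1330 CPM summed in the dentate gyrus, 3969 to 4151 CPM in WT Ammon's horn), all 6 granule cell markers were higher, and all 5 CA1 markers were lower. Of the other lists, 5 of 6 interneuron, 4 of 5 general neuron and 3 of 6 microglia markers were lower. So were 2 of 6 CA2 and CA3 pyramidal, 2 of 4 oligodendrocyte precursor and 2 of 5 endothelial and mural markers. Adult neurogenesis markers were higher for 4 of 5, while 0 of 6 astrocyte and 0 of 6 choroid plexus markers were called. Their part in the differences of the regulators was not tested.

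Rbfox1 had 380 CPM in the dentate gyrus, against 262, 229 and 240 CPM in WT Ammon's horn. It exceeded every Ammon's horn library of either genotype. The log2 fold change was 0.64 (SE 0.09, edgeR adjusted p = 0.000638), a fold of 1.56 with an interval of 1.36 to 1.78. It was the only member both called and at least 1.5-fold higher, as were 5.77% of all genes. Exon-bin sums gave 0.66 on the log2 scale. Rbfox3 had 167 CPM in the dentate gyrus and 153, 148 and 134 CPM in WT Ammon's horn, a log2 fold change of 0.21 that missed the threshold (adjusted p = 0.104). From exon-bin sums, where 29.3% of 16263 genes were called, its log2 fold change was 0.27 and the adjusted p was 0.0260. Rbfox2 had 182 CPM in the dentate gyrus and 172 to 178 CPM in WT Ammon's horn, a fold of 1.04 (0.925 to 1.17).

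Ptbp2 had 95.8 CPM in the dentate gyrus, above the 76.4, 72.2 and 81.4 CPM of WT Ammon's horn, and a log2 fold change of 0.32 (edgeR adjusted p = 0.0196, SE 0.08). In exon-bin sums it was 118 CPM in the dentate gyrus and 107, 97.0 and 111 CPM in WT Ammon's horn, and the difference of 0.17 did not pass (adjusted p = 0.166). Its gene-table count was 1.43 times its exon-bin count in the dentate gyrus library and 1.22 to 1.29 times in WT libraries. Ptbp1 had 20.7 CPM in the dentate gyrus and 18.1, 16.3 and 15.7 CPM in WT Ammon's horn, a log2 fold change of 0.31 (adjusted p = 0.0738). Without WT replicate 1 it was 0.37 with an adjusted p of 0.0370.

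Mbnl2 had 159 CPM in the dentate gyrus and 143, 130 and 138 CPM in WT Ammon's horn, with a log2 fold change of 0.21 and an adjusted p of 0.0841. Mbnl1 had 51.1 CPM in the dentate gyrus, within the WT values of 54.1, 45.7 and 47.4 CPM, and a fold of 1.04 (0.897 to 1.21). Nova1 had 24.7 CPM in the dentate gyrus and 24.7, 21.1 and 21.6 CPM in WT Ammon's horn, a fold of 1.10 (0.931 to 1.29).

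Nova2 depended on how reads were counted. It had 72.8 CPM in the dentate gyrus, below the 74.9, 74.9 and 79.3 CPM of WT Ammon's horn in the gene table, with a log2 fold change of -0.07 (adjusted p = 0.572). Exon-bin sums placed it at 48.2 CPM in the dentate gyrus, above the 39.8, 39.1 and 44.2 CPM of WT Ammon's horn, with a log2 fold change of 0.23 (adjusted p = 0.0919). The ratio of gene-table to exon-bin counts was 2.66 in the dentate gyrus library and 3.26, 3.33 and 3.01 in WT libraries. Over 14488 genes with at least 700 counts the median ratio was 1.60. Why the gene table holds more counts than the bins is not given in the sources used here.

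Qk had 181 CPM in the dentate gyrus, inside the WT range of 225, 179 and 208 CPM, and a log2 fold change of -0.17 (adjusted p = 0.288). Without WT replicate 2, the lowest WT library, it was -0.26 and passed (adjusted p = 0.0408). Over the 10 genes the median log2 fold change of dentate gyrus over Ammon's horn was 0.17, beside -0.01 for all genes.

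**Figure D2:**
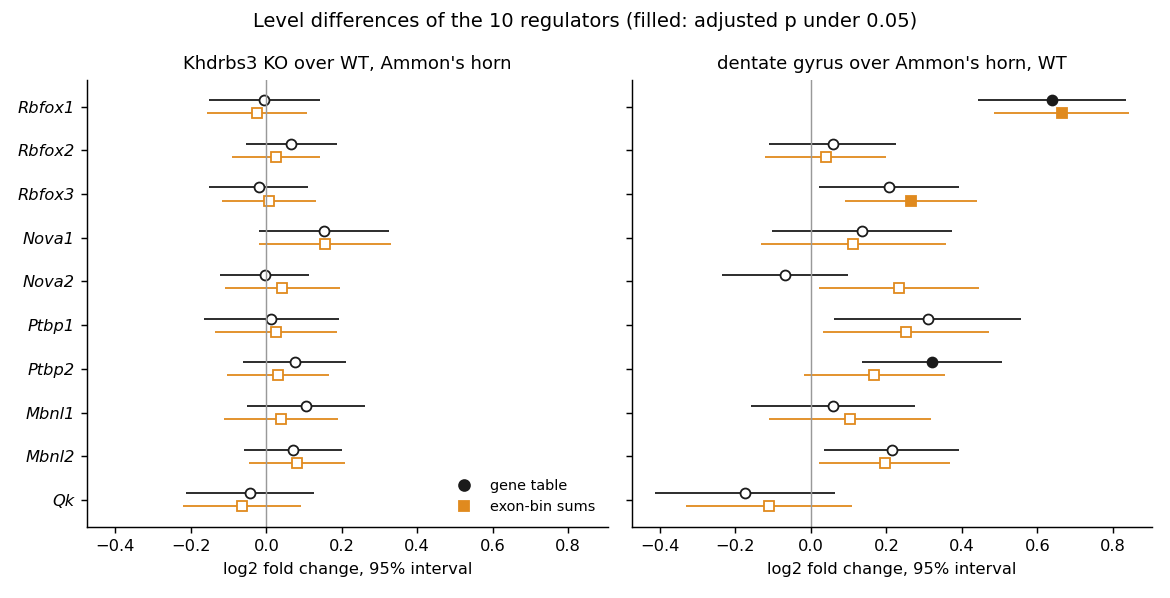
Log2 fold changes with 95% intervals for KO over WT Ammon's horn (left) and wild-type dentate gyrus over wild-type Ammon's horn (right), from the gene table (circles) and from exon-bin sums (squares), filled where the edgeR adjusted p is under 0.05. Left, no symbol is filled; right, Rbfox1 is filled in both, Ptbp2 in the gene table alone and Rbfox3 in the exon-bin sums alone.

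**Figure D3:**
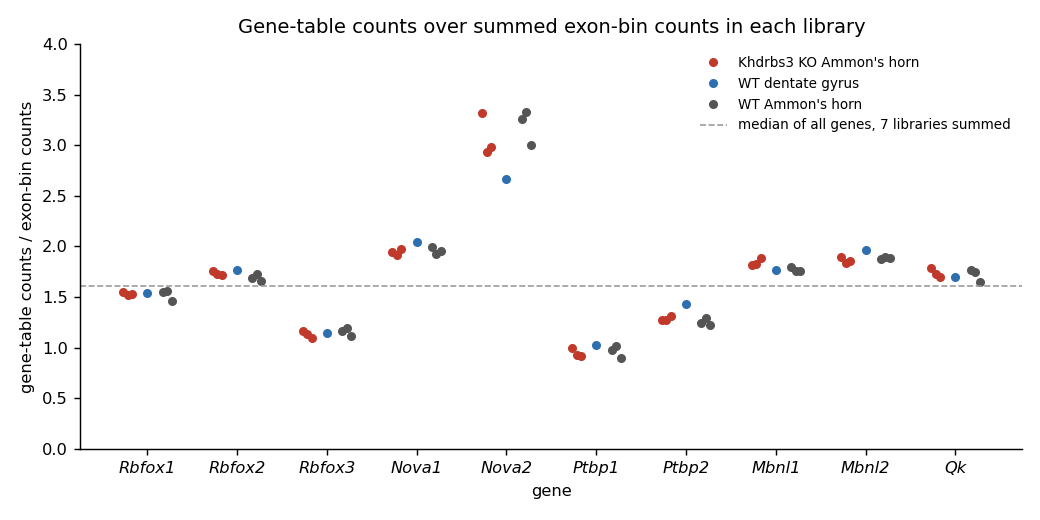
Gene-table counts divided by summed exon-bin counts for each regulator and library (KO Ammon's horn, wild-type dentate gyrus and wild-type Ammon's horn from left to right within a gene; the dashed line is the median of 1.60 over all genes). The dentate gyrus point is the lowest of the 7 for Nova2, at 2.66. It is the highest for Ptbp2, at 1.43, and also for Nova1, Mbnl2, Rbfox2 and Ptbp1 (2.05, 1.96, 1.76 and 1.03). The shares of all genes at either extreme were not computed.

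Exon usage, the log2 change of a bin relative to the other bins of its gene, was tested with edgeR's diffSpliceDGE. In KO against WT, 134 of the 168 bins had at least 10 reads in 3 libraries, and 0 of 134 were called, against 0.00301% of the 166154 bins tested. An unadjusted p under 0.05 was found for 3 of 134 bins (2.24%) and for 1.72% of all bins. The 3 bins were Rbfox3 bin 5, a non-coding bin of 752 bases, with 55, 78 and 60 reads in KO and 46, 62 and 46 in WT (usage 0.38, SE 0.18), and Mbnl1 bins 4 and 5, neighbouring coding bins of 201 and 258 bases with usages of -0.30 and -0.29. Mbnl1 bin 5 took 5.32%, 6.52% and 5.63% of its gene's bin reads in KO and 7.23%, 6.84% and 7.43% in WT. The groups did not overlap for bin 5, but it was named for its small unadjusted p from these same values. The lack of overlap therefore adds nothing, and the share of all bins without overlap was not computed. Its adjusted p was 1. For each of the other 8 genes the bin with the smallest p was Rbfox1 bin 1, Rbfox2 bin 7, Nova1 bin 2, Nova2 bin 2, Ptbp1 bin 46, Ptbp2 bin 4, Mbnl2 bin 3 and Qk bin 3, with unadjusted p-values of 0.0695 (Rbfox2) to 0.467 (Nova2).

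In the dentate gyrus against WT Ammon's horn, 2 of 135 bins were called, both used less, against 0.213% of 169072 bins in either direction and 0.0266% used less. An unadjusted p under 0.05 was found for 5 of 135 (3.70%) and for 3.89% of all bins. Both called bins lie at a transcript start in the gene models: bin 1 of Rbfox1 and bin 20 of Rbfox3.

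Rbfox1 bin 1 is the first bin of a gene that begins at the same base as the 27-base exon printed above. It had 149 reads in the dentate gyrus library, 147, 140 and 124 in KO and 135, 180 and 183 in WT Ammon's horn. These are 0.970% of the gene's bin reads in the dentate gyrus (exact binomial 95% interval 0.821% to 1.14%, counting error only), 1.52% ± 0.16 in KO and 1.72% ± 0.18 in WT Ammon's horn (SD, n = 3 each). The usage change was -0.82 (SE 0.17, edgeR adjusted p = 0.00858). The other 13 tested bins of Rbfox1 had 1.54 to 1.94 times the WT Ammon's horn mean in CPM, and bin 1 had 0.897 times. Of 8 M21 transcripts of the gene, 3 start upstream of this exon, 1 starts at it and 4 start downstream of it. Without the KO libraries in the fit the usage was the same and the adjusted p was 0.0564. By gene, Rbfox1 was called for usage (Simes adjusted p = 0.0142, as were 1.4% of 12270 genes) and Rbfox3 was not (0.121).

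Rbfox3 bin 20, a non-coding bin of 360 bases at chr11:118569551-118569910 on the minus strand, is a first exon inside the gene that 6 spanning transcripts skip. It had 2 reads in the dentate gyrus, 18, 17 and 21 in KO and 11, 15 and 17 in WT Ammon's horn. That is 0.0220% of the gene's bin reads in the dentate gyrus (0.00266% to 0.0793%), against 0.190% ± 0.039 in WT Ammon's horn (SD, n = 3). The usage change was -3.03 (SE 0.75, edgeR adjusted p = 0.0455). The call was lost when any of 5 of the 6 Ammon's horn libraries was left out, with adjusted p-values of 0.0543 to 0.128, and was kept without KO replicate 3. It was also lost with the wild-type libraries alone (adjusted p = 0.104) and with limma's diffSplice (0.320). The other 24 tested bins of Rbfox3 had 1.05 to 1.77 times the WT mean.

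**Figure D4:**
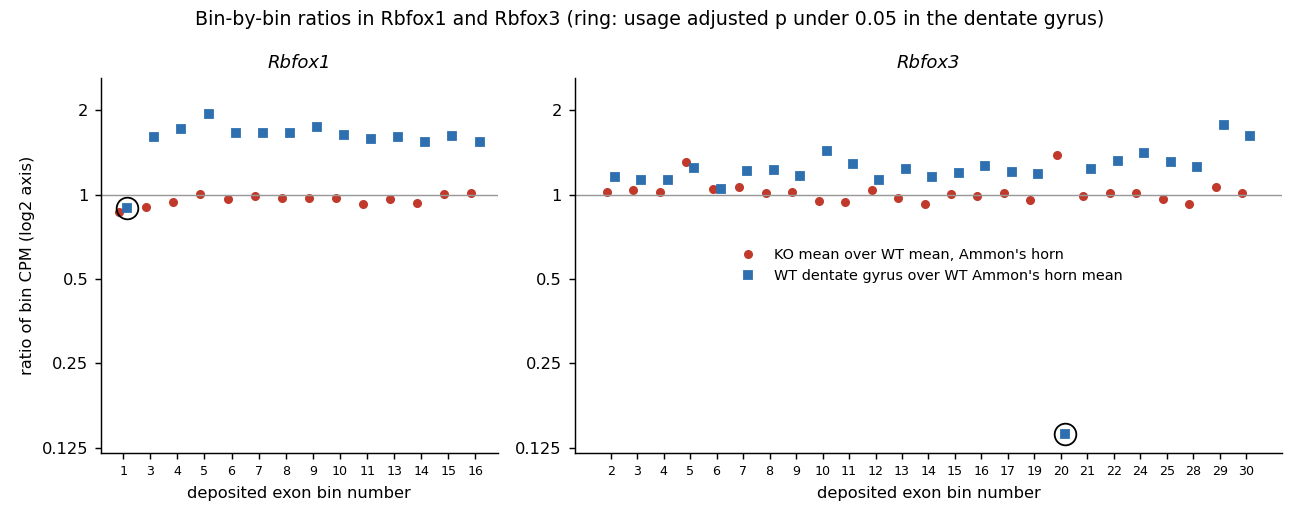
Ratio of bin CPM to the wild-type Ammon's horn mean for each tested bin of Rbfox1 and Rbfox3, for the KO Ammon's horn mean (circles) and the wild-type dentate gyrus library (squares), on a log2 axis; rings mark bins called for usage in the dentate gyrus. All Rbfox1 squares lie at 1.54 or above except bin 1 at 0.897, and Rbfox3 bin 20 lies at 0.140.

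The 13 cassette exons of 7 genes whose bins could be placed on the genome gave 0 calls in either comparison, with usage changes of -0.28 to 0.28 in KO and -0.16 to 0.60 in the dentate gyrus. The 34-base Ptbp2 exon took 3.45%, 4.005% and 4.28% of Ptbp2 bin reads in KO, 3.32% in the dentate gyrus (2.79% to 3.91%) and 3.23%, 3.46% and 3.78% in WT Ammon's horn. The 140-base Ptbp2 exon beside it took 5.52% ± 0.53 in KO, 5.51% in the dentate gyrus and 5.03% ± 0.53 in WT Ammon's horn. The 93-base Rbfox3 exon took 5.41% ± 0.44 in KO, 5.40% in the dentate gyrus and 5.42% ± 0.17 in WT Ammon's horn, a close match. The 72-base Nova1 exon took 7.13%, 7.89% and 5.81% in KO, 7.60% in the dentate gyrus and 7.41%, 8.82% and 9.38% in WT Ammon's horn (KO usage -0.28, SE 0.16).

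The 36-base Mbnl1 exon, which holds GCATG, had 29, 29 and 24 reads in KO, 46 in the dentate gyrus and 20, 35 and 30 in WT Ammon's horn. Its share was 2.56% in the dentate gyrus (1.88% to 3.40%) and 1.27%, 1.95% and 1.86% in WT Ammon's horn. The dentate gyrus library was the highest, and the usage change of 0.60 (SE 0.29, edgeR adjusted p = 1) did not pass. The 95-base exon took 4.28% in the dentate gyrus and 3.41% ± 0.81 in WT Ammon's horn in Mbnl1. In Mbnl2 its counterpart took 3.74% in the dentate gyrus and 3.51% ± 0.30 in WT Ammon's horn. The 54-base Mbnl2 exon took 1.26% ± 0.15 in KO, 1.43% in the dentate gyrus (1.12% to 1.80%) and 1.20% ± 0.14 in WT Ammon's horn.

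The quaking isoforms differ in their 3′ ends, and 4 bins cover these in the deposited model. Bin 2, of 3180 bases, took 44.2%, 42.1% and 42.5% of Qk bin reads in KO, 36.7% in the dentate gyrus (35.6% to 37.9%) and 43.8%, 41.2% and 40.0% in WT Ammon's horn. Bin 1, the most distal, took 10.4%, 9.89% and 9.69% in KO, 12.2% in the dentate gyrus (11.4% to 13.0%) and 10.1%, 9.72% and 9.34% in WT Ammon's horn. How many of all bins have a dentate gyrus share outside all 6 Ammon's horn libraries was not computed. For Qk the dentate gyrus share lay below all 6 for bin 2 and above all 6 for bin 1. Neither passed (usage -0.18, SE 0.14, and 0.33, SE 0.14; edgeR adjusted p = 1 for both). Bins 3 and 4 took 3.998% and 15.7% in the dentate gyrus, against 4.01% ± 0.25 and 14.7% ± 0.46 in WT Ammon's horn. Among the remaining genes, the smallest unadjusted p in the dentate gyrus was 0.0390 for Rbfox2 bin 8, with 61 reads in the dentate gyrus and 35, 43 and 42 in WT Ammon's horn. Nova1 bin 4, Nova2 bin 3, Ptbp1 bin 40, Ptbp2 bin 10 and Mbnl2 bin 6 had unadjusted p-values of 0.136 (Nova2) to 0.309 (Mbnl2).

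**Figure D5:**
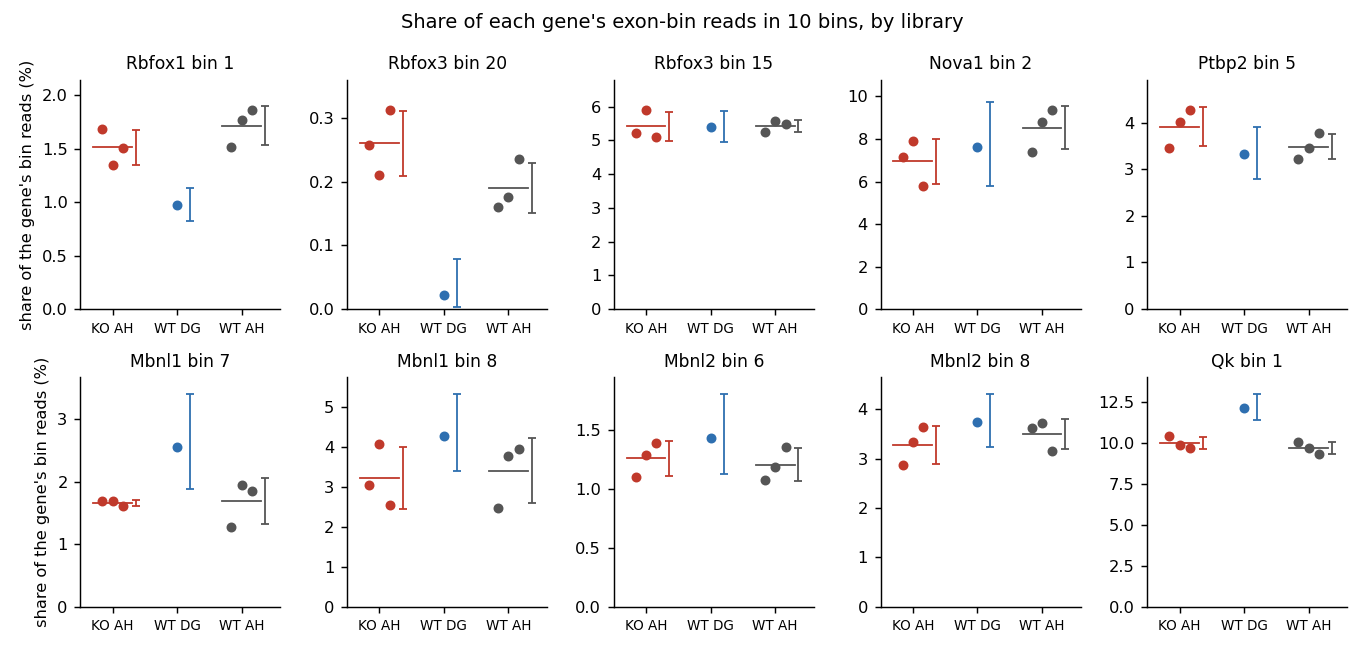
Share of a gene's exon-bin reads in 10 bins, by library, with KO Ammon's horn (KO AH) left, wild-type dentate gyrus (WT DG) in the middle and wild-type Ammon's horn (WT AH) right; lines and bars are means and SD over 3 libraries, and the dentate gyrus bar is the exact binomial 95% interval. The dentate gyrus stands below all Ammon's horn libraries in Rbfox1 bin 1 (0.970%) and Rbfox3 bin 20 (0.0220%), and the cassette exons overlap between KO and WT. The shares of all bins that do so were not computed.

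Other tissue-biased regulators were described by a list of 35 genes. In KO Ammon's horn 3 of 35 were higher and 0 lower, beside 0.0657% higher and 0.00876% lower over all genes. The 3 were Khdrbs3, the deleted gene itself, and its paralogs Khdrbs1 and Khdrbs2. The list was chosen with earlier results of these data known, so the count is a description alone. Khdrbs1 had 122 ± 2.4 CPM in KO and 85.7 ± 0.32 CPM in WT, and Khdrbs2 20.6 ± 0.91 CPM in KO and 11.4 ± 1.3 CPM in WT (SD, n = 3 each). The list's median log2 fold change was 0.03. In the dentate gyrus 12 of 35 were higher and 4 lower, with a median of 0.23, beside 11.2% higher and 10.9% lower over all genes. Ptbp3, the third polypyrimidine tract protein, had 33.7 CPM in the dentate gyrus and 17.1 ± 1.8 CPM in WT Ammon's horn, a log2 fold change of 0.98 (SE 0.13). Celf1, a CUG-binding regulator that opposes Mbnl proteins on many exons, had 209 CPM and 139 ± 4.7 CPM in the same order, and Srrm2, a spliceosome scaffold, 238 CPM and 152 ± 13 CPM. Khdrbs1 was also higher (117 CPM in the dentate gyrus), while Khdrbs3 (78.8 CPM in the dentate gyrus, 140 ± 4.6 CPM in WT Ammon's horn) and the neuronal Elavl4 (28.4 CPM and 55.2 ± 4.1 CPM) were lower. Celf6 bin 6 was used more in the dentate gyrus, with 30 reads there and 12, 11 and 12 in WT Ammon's horn (usage 1.73, SE 0.38, edgeR adjusted p = 0.0228).

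Known target genes of the 5 families were followed by level and by bin, from lists of 7 to 10 genes. In KO Ammon's horn 0 genes and 0 bins were called in any of the 5 lists. The bins tested were 295 for Rbfox, 239 for Nova, 171 for Ptbp, 255 for Mbnl and 127 for Qk targets. Over the whole data 0.0745% of genes and 0.00301% of bins were called in KO. At such shares 0 calls in lists this small say little about the targets. The median log2 fold changes of the lists lay between -0.06 (Qk) and 0.04 (Mbnl). In the dentate gyrus, where 11.2% of all genes were higher and 10.9% lower and 0.213% of all bins were called in either direction, the counts of so few genes are a description alone. There 4 of 10 Rbfox targets were higher (Cacna1c, Rph3a, Camk2g and Ank3) and 1 lower (Snap25), with a median of 0.19, and 0 of 297 bins were called. Cacna1c, a calcium channel, had 89.6 CPM in the dentate gyrus and 44.7 ± 7.8 CPM in WT Ammon's horn, and Snap25, of the synaptic vesicle fusion machinery, was lower at 1644 CPM against 2439 ± 276 CPM. Nova targets had 3 of 9 higher (11.2% over all genes) with a median of 0.20, namely Glra2, Neo1 and Kcnj6, a potassium channel at 103 CPM in the dentate gyrus and 54.3 ± 13 CPM in WT Ammon's horn, with 0 of 239 bins called.

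Ptbp targets had 2 higher (Actn1 and Ptbp2 itself) and 2 lower (Pkm among them) of 9, with a median of -0.13; the 4 called stand beside 22% of all genes called in either direction. Of their 173 bins 3 were called, all used more in the dentate gyrus. Over all bins 0.213% were called in either direction and 0.0266% were used less, so most called bins were used more. The 3 include bin 7 of Cltb, clathrin light chain b, with 89 reads in the dentate gyrus and 17, 49 and 31 in WT Ammon's horn (usage 1.70, SE 0.23, edgeR adjusted p = 8.44e-07). Tpm1 bin 14, of a tropomyosin with well-studied Ptbp-regulated exons, had 37 reads in the dentate gyrus and 8, 15 and 10 in WT Ammon's horn (usage 1.63, SE 0.40, adjusted p = 0.0332), but as a gene Tpm1 was not called for usage (Simes adjusted p = 0.125). Mbnl targets had Cacna1d higher and Camk2d lower of 9 (22% of all genes were called), with a median of 0.03. Of their 261 bins 6 were called, all used more, the direction of most called bins (0.213% over all bins in either direction). All 6 lie in Ndrg4, the 1 gene of the list called for usage, so they are not 6 independent changes. Bin 4 of Ndrg4 had 380 reads in the dentate gyrus and 113, 159 and 145 in WT Ammon's horn. Qk targets had 0 of 7 higher and 4 lower, beside 10.9% of all genes lower, among them the myelin genes Mag, Mbp and Mobp, whose log2 fold changes were -1.49, -1.62 and -1.71; the median of the list was -1.49. They fell together with the 6 oligodendrocyte markers given above, a list that includes them. Of the 127 bins tested in the Qk target list 12 were used more, beside 0.213% of all bins called. All 12 lie in Mbp, so they are not 12 independent changes. Usage is relative to the gene's other bins, and the Mbp total was lower (log2 fold change -1.62). Whether any regulator's level bears on these bins was not tested.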

How the data were processed

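The authors deposited raw read counts: a table of counts per gene on GENCODE vM2 models and, per library, counts per exon bin in DEXSeq format. The submitters' processing notes name mm10, Trim Galore 0.3.5, TopHat2 2.0.8b, bedtools 2.17.0 and DESeq2 1.0.19. Counting options and strandedness are not given in the sources used here, so reads of overlapping genes may be shared. Genes were tested with edgeR 4.0.16 (R 4.3.3, TMM, quasi-likelihood, Benjamini-Hochberg over all genes tested) and bins of genes with at least 2 bins with diffSpliceDGE. The KO fit used the 6 Ammon's horn libraries and the dentate gyrus fit all 7. Alternatives used limma 3.58.1 and DESeq2 1.42.0. The code was tested on simulated counts. CPM values use TMM-scaled totals.

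Bins were placed on the genome for 7 of 10 genes (128 of 168 bins) by cutting GENCODE M21 exons. Bin number and both gene ends matched for Rbfox3, Ptbp1, Ptbp2 and Mbnl2. For Nova1, Mbnl1 and Qk the bin number alone matched, and the outermost ends were set to the deposited gene ends. Rbfox1, Rbfox2 and Nova2 bins are named by number. Exons came from M21 transcripts (Python 3.11.15). Intervals and shares cover counting error; reads spanning several bins count in each. The 10 genes and all lists were chosen with earlier results of these data known. Named bins were those called, the smallest p per gene and comparison, cassette exons of 20 to 160 bases and the Qk 3′ ends; named list genes were the called ones with the smallest p. Mbnl1 bin 4 was named after its values were seen. Some genes of these lists are counted but not reported by name here.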

Additional observations from a re-analysis of the deposited data

How the results depend on the processing

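The count of KO calls among the 10 genes and among their bins was 0 under every alternative run: other scaling, filters, tools, exon-bin sums, a choroid plexus covariate, no mitochondrial genes and each replicate left out. The dentate gyrus count of genes was 2 or 3 of 10 in all alternatives. For member bins called in the dentate gyrus (2), the count was 1 with at least 30 reads per bin, 1 with limma's diffSplice, 0 with wild-type Ammon's horn alone and 1 to 2 when leaving out a library. Signs turned for KO log2 fold changes near 0: in exon-bin sums Rbfox3 was 0.0072 and Nova2 0.043, and with the choroid plexus covariate Rbfox1 was 0.0072 and Nova2 0.015. Leaving out a library in turn gave ranges of -0.051 to 0.051 for Rbfox1, -0.072 to 0.021 for Rbfox3, -0.032 to 0.033 for Nova2, -0.027 to 0.075 for Ptbp1 and -0.13 to 0.033 for Qk. In the dentate gyrus Nova2 turned to 0.23 in exon-bin sums. Over all genes the 17 KO calls became 119 with DESeq2, 10 with limma-voom, 8 with exon-bin sums, 4 without mitochondrial genes, and 11 to 55 when leaving out a library. The 5 KO bins became 5 to 8 when leaving out a library. The 360 dentate gyrus bins became 214 with at least 30 reads, 553 with limma, 210 with wild-type Ammon's horn alone and 196 to 512 when leaving out a library. The cause of each shift was not tested. No paired analysis was possible because the labels give no replicate numbers shared between groups. One dentate gyrus library gives no measure of spread in that region, and bins under 30 reads, such as Rbfox3 bin 20, rest on few reads.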
